A study of Homo sapiens with 24 samples.

Results

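The DREAM complex is a repressor of cell cycle genes, and the genes for 10 of its subunits were followed in LNCaP cells after knockdown of the long non-coding RNAs TAPIR-1 and TAPIR-2. The subunits were E2F4, E2F5, TFDP1, RBL1, RBL2, LIN9, LIN37, LIN52, LIN54 and RBBP4, and every array probe whose RefSeq transcript belongs to one of these genes was taken. This gave 16 probes of 10 genes, the same 16 on both versions of the array, out of 20992 genes that could be named through RefSeq on the version used at 24 h and 22439 on the version used at 48 h. All 16 probes were above the background threshold at both time points, so none was lost to a filter on low values.

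LNCaP is an established human prostate cancer cell line that depends on the androgen receptor. Cells were transfected with a scrambled control siRNA (scramble), with the siRNA si-A1 against TAPIR-1 or with the siRNA si-A2 against TAPIR-2, and total RNA was taken at 24 h and at 48 h. Each group had 4 replicates, described in the methods as biological, each on its own single-colour Agilent array, and each target was represented by 1 siRNA sequence. The second si-A2 array at 48 h was dim and was left out, which leaves 12 arrays at 24 h and 11 at 48 h. A different version of the array was used at each time point, so levels were not compared between them.

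In resting cells DREAM consists of a pocket protein (RBL1 or RBL2), a repressive E2F (E2F4 or E2F5) with its dimerisation partner (TFDP1), and a core named MuvB, made of LIN9, LIN37, LIN52, LIN54 and the histone-binding protein RBBP4. The E2F arm contacts E2F sites in promoters of genes for DNA replication, and LIN54 contacts the CHR element in promoters of genes for mitosis. When p53 induces CDKN1A, cyclin-dependent kinases are held back, the pocket proteins stay unphosphorylated and the complex assembles, whereas in cycling cells MuvB joins MYBL2 and FOXM1 and activates mitotic genes instead. The comparisons ask whether the RNA of the subunits themselves differed after the knockdowns.

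All levels are log2 intensities after quantile normalisation within a time point, and a difference is the log2 level after si-A1 or si-A2 minus that after scramble. A probe was called at a Benjamini-Hochberg adjusted p below 0.01 over all tested probes together with a difference of at least 0.5, from 1 limma fit per time point with the slide as a term. Hybridisation used 2 slides at each time, and both held all siRNAs, but an siRNA always occupied the same column of the slide, so array position and siRNA cannot be told apart. Median processed intensities of the arrays ran from 24.4 to 57.2 for the earlier time and from 20.4 to 32.2 for the later one, and 58.5% to 71.7% of the probes were well above background. The left-out array had a median of 13.9 and a Pearson r of 0.56 with the other si-A2 arrays of 48 h, whereas the arrays used had an r of at least 0.96 with the rest of their group, the lowest being scramble replicate 3 at 24 h. The knockdown could be followed only for TAPIR-2, whose shared probe was at 5.04 ± 0.20 after scramble and 4.06 ± 0.74 after si-A2 at 24 h (SD, n = 4 each; difference -0.98, limma adjusted p = 0.23), and did not differ beyond the spread at 48 h. All 9 luminal prostate markers were well above background on every array, and their summed level ranged from 15.16 to 15.27 after scramble, 15.00 to 15.29 after si-A1 and 15.12 to 15.36 after si-A2 at 24 h. At 48 h the summed level was 15.06 to 15.67 after scramble, 14.82 to 15.07 after si-A1 and 15.04 to 15.29 after si-A2, and KLK2, a target of the androgen receptor, was called lower after si-A1 (-1.07). The part of this in the si-A1 results was not tested. The basal marker KRT5 and the fibroblast marker COL1A2 were well above background on no array, but other markers of these lists were on some. At 24 h this held for KRT14 on 3 scramble, 4 si-A1 and 3 si-A2 arrays, and for TP63 on 2, 2 and 3. It held for the fibroblast marker COL1A1 on 1, 2 and 0 arrays and for COL3A1 on 1, 0 and 0. At 48 h KRT14 was well above background on 4, 4 and 2 arrays and TP63 on 0, 0 and 1, and no fibroblast marker was. The leukocyte markers on the array (CD68, PTPRC and CD3E at 24 h, 2 of them at 48 h) were well above background on every array, with summed levels of 7.30 to 8.24 and 7.31 to 8.50 that overlapped between the siRNAs.

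After 24 h, RBL1 was the only subunit gene called lower, and E2F5 the only one called higher, after si-A1 alone. Some probes lay entirely below scramble without a call. These were TFDP1 A_32_P199301 after si-A1, and the LIN52 probe and RBBP4 A_23_P326691 and A_33_P3232562 after si-A2. E2F5 lay entirely above scramble after si-A2, also without a call. Of the 16 probes, 1 was called higher and 1 lower after si-A1, where 0.0803% and 1.02% of the 44849 tested probes were called higher and lower, and 0 were called higher and 2 lower after si-A2, where the shares were 0.0892% and 0.838%. The subunit probes had a median difference of -0.12 for si-A1 and of -0.42 for si-A2, while that of all tested probes was 0.04 in both comparisons. An unadjusted p below 0.05 was reached by 6 subunit probes for si-A1, beside 13.0% of all tested probes, and by 9 for si-A2, beside 11.7%. Both comparisons share the scramble arrays. In RNA from whole cultures, fewer cells that express a gene and less of its RNA per cell cannot be told apart.

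After 48 h, TFDP1, LIN52, RBL1 and RBBP4 had a probe called lower after si-A1, and E2F5 was called higher. For RBL1 this was 1 of 2 probes and for RBBP4 1 of 4. After si-A2 LIN52 alone passed the test, but between the siRNAs only 1 subunit probe was called. Of the 16 probes, 1 was called higher and 5 lower after si-A1, beside 2.13% and 3.98% of the 45200 tested probes, and 0 were called higher and 1 lower after si-A2, beside 0.0686% and 0.376%. For si-A1 the median over the subunit probes was -0.44, against 0.05 over all tested probes, and for si-A2 it was -0.36, against 0.00. With the replicate number as a block in place of the slide, 3 subunit probes were called after si-A1 at 48 h (RBBP4 A_24_P468810 and both TFDP1 probes), beside 3.98% of all tested probes. After si-A2 that fit called 0 probes of any gene, and LIN52 had an adjusted p of 0.0234. For si-A1, E2F5, RBL1 probe A_24_P276102 and LIN52 then had adjusted p-values of 0.0237, 0.0146 and 0.0163.

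**Figure D1:**
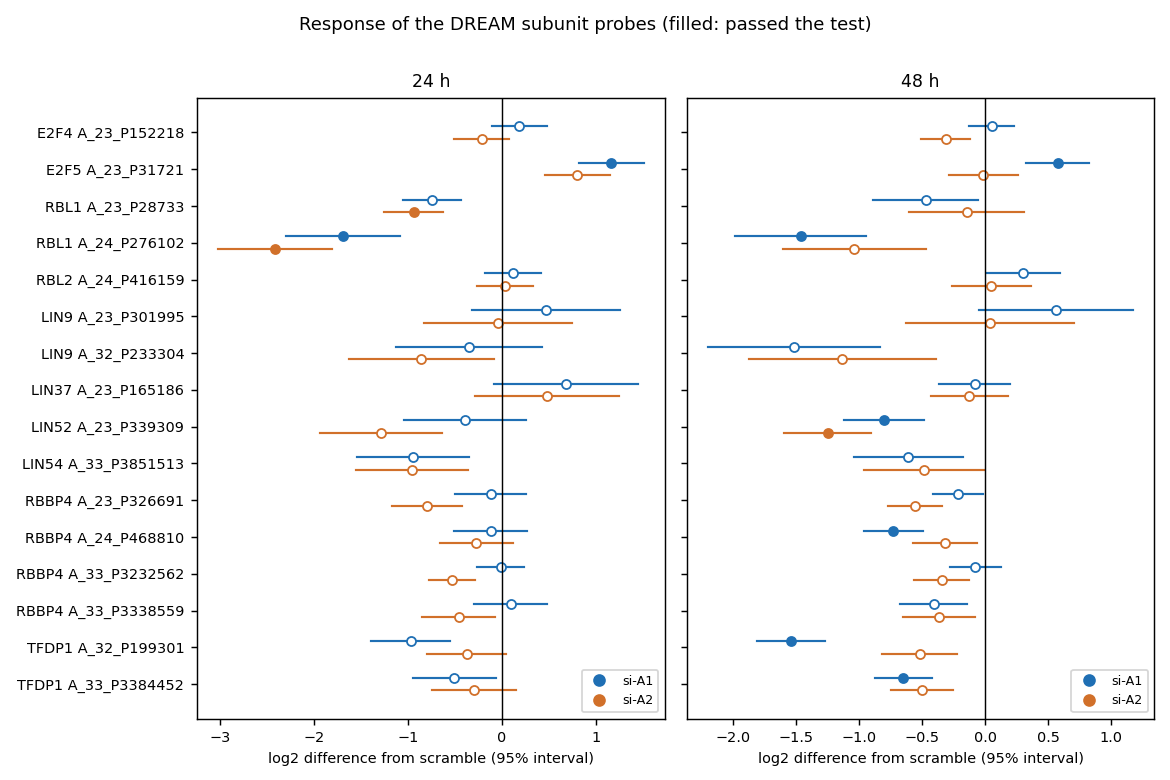
Log2 difference from scramble (x axis, log2 units) for each of the 16 subunit probes at 24 h (left) and 48 h (right), si-A1 in blue and si-A2 in orange, with bars for the 95% interval of the limma fit and filled points for probes that passed the test. Fitted values of RBL1 probe A_24_P276102 for si-A2 at 24 h, of LIN54 at 24 h and of LIN9 probe A_32_P233304 rest on groups with no array well above background (for LIN9 both siRNAs at 48 h and si-A2 at 24 h), so their length is not a measured size. TFDP1 probe A_32_P199301 lies at -1.54 after si-A1 at 48 h, and E2F5 lies to the right of 0 after si-A1 at both times.

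RBL1 encodes the pocket protein that is made mainly in cycling cells, and it lies on chromosome 20 (GRCh38.p14, chr20:36996349-37095997). It is covered by 2 probes that were designed on different RefSeq transcripts of the gene. At 24 h, probe A_23_P28733 measured 7.07, 6.57, 6.80 and 6.75 after scramble, 6.01, 6.18, 5.82 and 6.18 after si-A1, and 5.86, 5.95, 5.81 and 5.79 after si-A2. All 8 knockdown arrays were below all 4 scramble arrays, and the si-A2 arrays lay closest together. The difference was -0.94 ± 0.14 (SE, limma adjusted p = 0.00507) after si-A2, and -0.75 ± 0.14 after si-A1, where the adjusted p of 0.019 missed the threshold.

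The other RBL1 probe, A_24_P276102, measured 4.78, 5.30, 5.39 and 4.89 after scramble at 24 h, 3.82, 3.31, 3.32 and 3.14 after si-A1, and 3.38, 3.10, 2.37 and 1.83 after si-A2. Again no knockdown array reached the lowest scramble array, but the probe was well above background on 1 of 4 si-A1 arrays and on 0 of 4 si-A2 arrays. The fall after si-A1 was -1.69 ± 0.27 (limma adjusted p = 0.00778), with -1.48 and -1.91 within the slides. After si-A2 the fitted difference was -2.42 ± 0.27 (limma adjusted p = 0.000822), and since the si-A2 level is only a bound, the probe was at least 2.62-fold lower than after scramble on this scale. The size depended on the background correction: without it the differences of this probe at 24 h were -0.36 for si-A1 and -0.46 for si-A2, and with normexp they were -0.36 and -0.44, so that no call was left.

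The second RBL1 probe separated the groups again at the later time while the first did not. Probe A_24_P276102 was at 4.74, 4.77, 4.62 and 4.76 after scramble, 2.85, 3.58, 3.28 and 3.34 after si-A1, and 4.34, 3.4 and 3.19 after si-A2, so both knockdowns lay below scramble with no overlap. It fell by 1.46 after si-A1 (SE 0.23, limma adjusted p = 0.00377), a difference of -0.46 without background correction and -0.33 with normexp, and its difference after si-A2 was -1.04 ± 0.25 (adjusted p = 0.0678). Probe A_23_P28733 overlapped with scramble after both siRNAs at 48 h, with differences of -0.47 ± 0.18 and -0.15 ± 0.20.

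The RBL1 calls differed in how they held when 1 array was left out. The si-A2 call of probe A_24_P276102 at 24 h was kept in all 12 such fits (adjusted p between 0.00101 and 0.00475). Its si-A1 call at 24 h was kept only without scramble replicate 1 or without si-A2 replicate 1 or 4, with an adjusted p of up to 0.0374 otherwise. The si-A2 call of probe A_23_P28733 was kept only without scramble replicate 2 or without si-A1 replicate 3 or 4, with differences between -1.04 and -0.86 over all 12 fits. The si-A1 call of 48 h was kept without si-A1 replicate 1 or 4 or any of the 3 si-A2 arrays, and lost without si-A1 replicate 2 or 3 or any of the 4 scramble arrays, with an adjusted p of up to 0.0143.

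RBL2, which encodes the pocket protein typical of resting cells and lies on chromosome 16, has 1 probe, A_24_P416159. Its level at 24 h was 9.62 ± 0.15 after scramble, 9.74 ± 0.15 after si-A1 and 9.65 ± 0.12 after si-A2 (SD, n = 4 each). The groups overlapped, and the 95% interval of the difference ran from -0.18 to 0.41 for si-A1, while for si-A2 it ran from -0.27 to 0.33. At 48 h the differences were 0.30 ± 0.13 (adjusted p = 0.151) and 0.05 ± 0.14 (adjusted p = 0.903).

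E2F5 and E2F4 encode the E2F proteins that act mainly as repressors. E2F5, on chromosome 8, was the subunit gene with a called increase. At 24 h its probe A_23_P31721 measured 5.75, 5.82, 5.60 and 5.94 after scramble, 7.02, 6.99, 6.97 and 6.79 after si-A1, and 6.28, 6.67, 6.47 and 6.89 after si-A2. Every knockdown array lay above every scramble array. The rise after si-A1 was 1.16 ± 0.16 (limma adjusted p = 0.00241), a 2.24-fold increase, with 1.22 and 1.11 within the slides, and the difference after si-A2 was 0.80 ± 0.16 (adjusted p = 0.0269).

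Later, at 48 h, the E2F5 probe was at 5.59, 5.60, 5.88 and 5.91 after scramble and at 6.15, 6.46, 6.36 and 6.31 after si-A1, whereas after si-A2 it was at 5.82, 5.79 and 5.64. Only the si-A1 arrays stood apart from scramble, with a rise of 0.58 ± 0.11 (limma adjusted p = 0.00899), which was 0.38 without background correction and 0.30 with normexp and then not called, and the difference after si-A2 was -0.01 ± 0.12. The direct comparison of si-A2 with si-A1 gave -0.59 ± 0.12 with no overlap of the arrays, but the adjusted p of 0.0263 missed the threshold. The 24 h call was lost without scramble replicate 1 or 2 or si-A1 replicate 1, 2 or 3 (adjusted p up to 0.014), and the 48 h call was kept only without si-A2 replicate 4 among the 11 fits that left out an array (adjusted p up to 0.0284).

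E2F4, on chromosome 16, is the more abundant repressive E2F of many cell types. Its probe A_23_P152218 was at 8.78 ± 0.11 after scramble, 8.96 ± 0.17 after si-A1 and 8.56 ± 0.19 after si-A2 at 24 h. The corresponding 48 h levels were 8.52 ± 0.08, 8.58 ± 0.12 and 8.23 ± 0.11 (SD, n = 4, 4 and 3), and all si-A2 arrays were below all scramble and all si-A1 arrays. The difference of si-A2 from scramble was -0.31 ± 0.09 (adjusted p = 0.102), and no E2F4 difference passed the test.

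TFDP1, on chromosome 13 (GRCh38.p14, chr13:113584688-113641473), encodes the DP protein without which E2F proteins bind DNA poorly. Its probe A_32_P199301 measured 8.45, 9.16, 8.41 and 8.65 after scramble at 24 h, 7.90, 7.50, 7.71 and 7.68 after si-A1, and 8.30, 8.10, 8.21 and 8.56 after si-A2. The si-A1 arrays lay below all others, but the difference of -0.97 ± 0.19 had an adjusted p of 0.0232. The si-A2 arrays overlapped with scramble (difference -0.38 ± 0.19).

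This probe had the smallest adjusted p of all subunit probes at 48 h. It was at 7.81, 7.68, 7.78 and 7.97 after scramble, 5.96, 6.32, 6.50 and 6.29 after si-A1, and 7.32, 7.19 and 7.43 after si-A2, so that the groups formed 3 separate layers with scramble highest and si-A1 lowest. The fall after si-A1 was -1.54 ± 0.12 (limma adjusted p = 9.42e-05), a 2.91-fold decrease that was seen within both slides (-1.61 and -1.48) and was called in all 11 fits without 1 array. After si-A2 the difference was -0.52 ± 0.13 (adjusted p = 0.078).

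The second TFDP1 probe, A_33_P3384452, gave a smaller difference. At 48 h it measured 8.30, 8.01, 8.23 and 8.0 after scramble, 7.48, 7.49, 7.42 and 7.55 after si-A1, and 7.74, 7.61 and 7.53 after si-A2, with both knockdowns below scramble. It fell by 0.65 after si-A1 (SE 0.10, limma adjusted p = 0.00339), a call lost without scramble replicate 1 or si-A1 replicate 1, 2 or 3 (adjusted p up to 0.0145). The difference after si-A2 was -0.50 ± 0.11 (adjusted p = 0.0487). At 24 h the groups of this probe overlapped, at 8.27 ± 0.46, 7.76 ± 0.08 and 7.97 ± 0.20.

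LIN52, on chromosome 14 (GRCh38.p14, chr14:74084956-74201493), encodes the MuvB subunit that is phosphorylated by DYRK1A and holds the pocket protein. At 48 h its probe A_23_P339309 measured 4.21, 4.40, 4.66 and 4.52 after scramble, 3.79, 3.78, 3.67 and 3.33 after si-A1, and 3.07, 3.24 and 3.31 after si-A2. Neither knockdown group overlapped with scramble, and the probe was well above background on 4 of 4 si-A1 arrays but on 1 of 3 si-A2 arrays. It fell by 0.80 after si-A1 (SE 0.14, limma adjusted p = 0.00625) and by 1.25 after si-A2 (SE 0.15, limma adjusted p = 0.00719), with -1.23 and -1.32 within the slides for si-A2. Without background correction these differences were -0.22 and -0.34, and with normexp -0.17 and -0.27, which ended both calls.

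At 24 h the LIN52 probe was at 4.64, 5.42, 4.50 and 5.11 after scramble, 4.45, 4.27, 4.93 and 4.43 after si-A1, and 3.13, 4.21, 3.22 and 3.95 after si-A2. The si-A2 arrays were below all others, though the difference of -1.29 ± 0.30 from scramble had an adjusted p of 0.0606. The 48 h calls were sensitive to single arrays: the si-A1 call was kept only without scramble replicate 1 or si-A2 replicate 1 or 4 (adjusted p up to 0.0208), and the si-A2 call only without si-A1 replicate 4 (adjusted p up to 0.0401), with differences between -1.31 and -1.16 for si-A2.

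**Figure D2:**
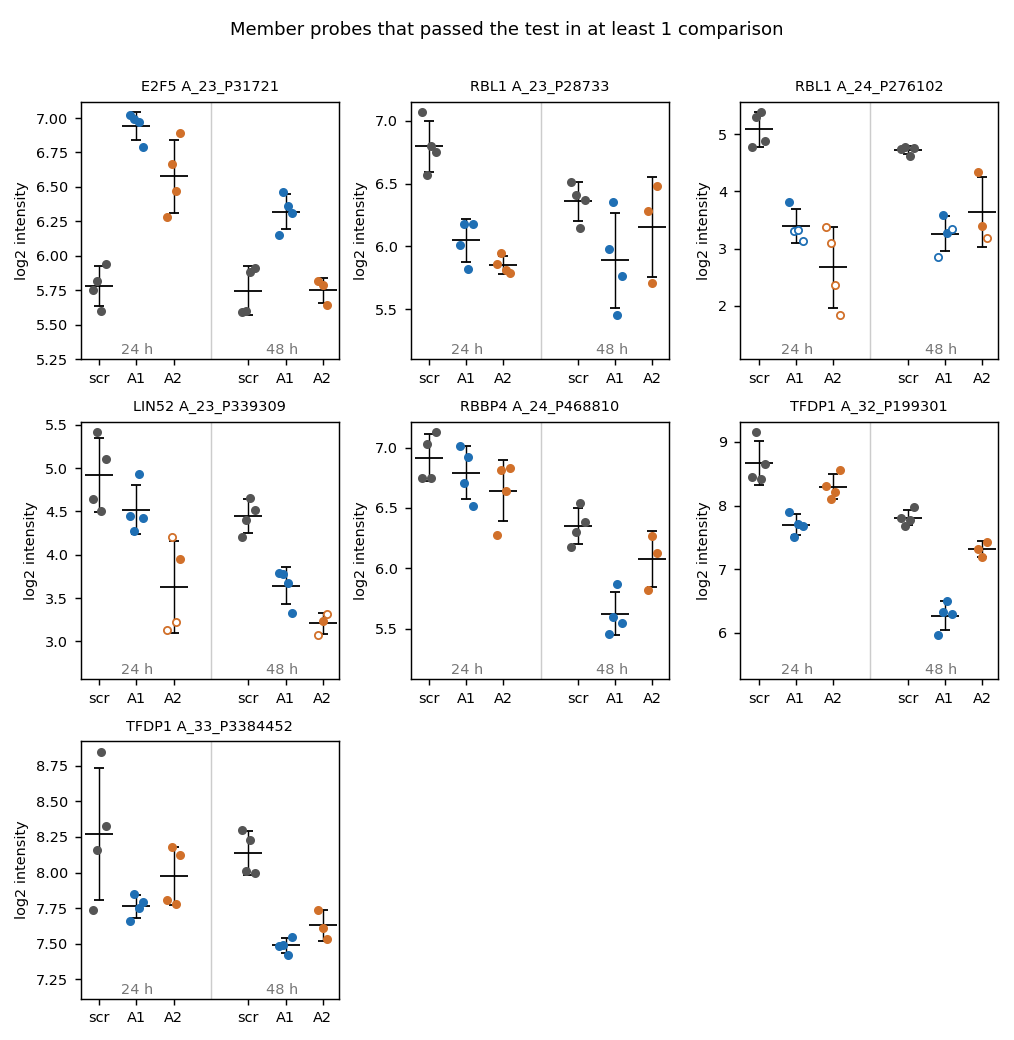
Log2 intensity (y axis) of the 7 subunit probes that passed the test in at least 1 comparison, for the groups scramble (scr), si-A1 and si-A2, with 24 h and 48 h side by side. Each point is an array, open where the probe was not well above background, and the black marks show the mean ± SD. TFDP1 probe A_32_P199301 forms 3 separate layers at 48 h, and E2F5 is above scramble after si-A1 at both times but after si-A2 only at 24 h.

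RBBP4 encodes a histone-binding protein that DREAM shares with other chromatin complexes, and it lies on chromosome 1 (GRCh38.p14, chr1:32651208-32686211). It has 4 probes, and it is a gene with a close relative, RBBP7, so binding of related transcripts to its probes is uncertain and was not tested. At 24 h the groups overlapped for all 4 probes after si-A1 (differences of -0.12, -0.12, -0.02 and 0.09), whereas after si-A2 they differed by -0.80 ± 0.17 (A_23_P326691, adjusted p = 0.0408), -0.27 ± 0.18 (A_24_P468810), -0.53 ± 0.11 (A_33_P3232562, adjusted p = 0.0391) and -0.46 ± 0.18 (A_33_P3338559). None of these differences was called, but that of A_23_P326691 after si-A2 was called with normexp (limma adjusted p = 0.00606) and without background correction (0.00608). Probe A_33_P3232562 measured 9.53, 9.67, 9.51 and 9.57 after scramble, 9.66, 9.46, 9.54 and 9.56 after si-A1, and 8.95, 9.04, 9.01 and 9.14 after si-A2. The si-A2 arrays of that probe lay below all 8 others.

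Of the 4 probes, 1 was called at 48 h. Probe A_24_P468810 measured 6.18, 6.30, 6.54 and 6.38 after scramble, 5.46, 5.60, 5.87 and 5.55 after si-A1, and 5.82, 6.27 and 6.13 after si-A2. The si-A1 arrays were below all scramble arrays, with a fall of 0.73 (SE 0.10, limma adjusted p = 0.00229) that was called in 10 of 11 fits without 1 array and reached an adjusted p of 0.0103 without si-A1 replicate 1. The difference was -0.49 without background correction and -0.39 with normexp, under the fold limit in both. The other probes gave -0.22 ± 0.09, -0.08 ± 0.09 and -0.41 ± 0.12 after si-A1 and -0.56 ± 0.10, -0.35 ± 0.10 and -0.37 ± 0.13 after si-A2, in the order above, none of them called. The difference between the probes of this gene was not tested.

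LIN9, on chromosome 1, encodes a scaffold of MuvB, and its 2 probes gave differences of opposite sign after si-A1 at 48 h. Probe A_23_P301995 was at 12.14 ± 0.21 after scramble, 12.70 ± 0.39 after si-A1 and 12.13 ± 0.67 after si-A2, with differences of 0.56 ± 0.27 and 0.04 ± 0.30 that were not called. Probe A_32_P233304 was at 3.99, 3.86, 3.74 and 4.09 after scramble, 2.47, 1.21, 2.89 and 3.05 after si-A1, and 2.51, 2.95 and 3.19 after si-A2. All knockdown arrays were below all scramble arrays and none was well above background. On this background-subtracted scale, the level was at least 1.65-fold lower after si-A1 (fitted difference -1.51 ± 0.30, adjusted p = 0.0108) and at least 1.52-fold lower after si-A2 (-1.13 ± 0.33, adjusted p = 0.12). At 24 h, the differences of A_32_P233304 were -0.35 ± 0.35 and -0.86 ± 0.35 and those of A_23_P301995 were 0.47 ± 0.36 and -0.04 ± 0.36, with overlapping groups. Without scramble replicate 3, which was at 8.20, the differences of A_23_P301995 were 0.05 and -0.46.

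LIN54, on chromosome 4, encodes the DNA-binding subunit of MuvB. At 24 h its probe A_33_P3851513 measured 3.63, 4.17, 5.05 and 4.56 after scramble, 3.14, 3.4, 3.34 and 3.74 after si-A1, and 2.84, 3.88, 3.52 and 3.32 after si-A2. The signal was well above background on 3 of 4 scramble arrays and on 0 of 8 knockdown arrays. Scramble replicate 1, at 3.63, lay within the range of both knockdown groups, so the groups overlapped. Between the group means the bound on this background-subtracted scale was at least 1.66-fold lower after si-A1 and at least 1.58-fold lower after si-A2. It makes no allowance for the spread, and neither difference was called (limma adjusted p = 0.125 and 0.134). Among the alternatives, the smallest fitted differences were -0.21 for si-A1 and -0.225 for si-A2. At 48 h the probe was at 4.58 ± 0.26, 3.97 ± 0.34 and 4.05 ± 0.37, with differences of -0.61 ± 0.19 (adjusted p = 0.0643) and -0.48 ± 0.21 (adjusted p = 0.272).

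LIN37, on chromosome 19, encodes a MuvB subunit needed for repression by DREAM. Its probe A_23_P165186 measured 12.17, 11.93, 10.36 and 12.22 after scramble at 24 h, against 12.35 ± 0.20 after si-A1 and 12.15 ± 0.19 after si-A2. Scramble replicate 3 was far below the other arrays, and it was also the lowest of the scramble arrays for LIN9 probe A_23_P301995 at 8.20. The LIN37 differences at 24 h were 0.68 and 0.48 with that array, and 0.24 and 0.04 without it. The 3 groups lay at 48 h at 11.67 ± 0.04, 11.58 ± 0.13 and 11.52 ± 0.31, and no difference passed the test at either time.

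**Figure D3:**
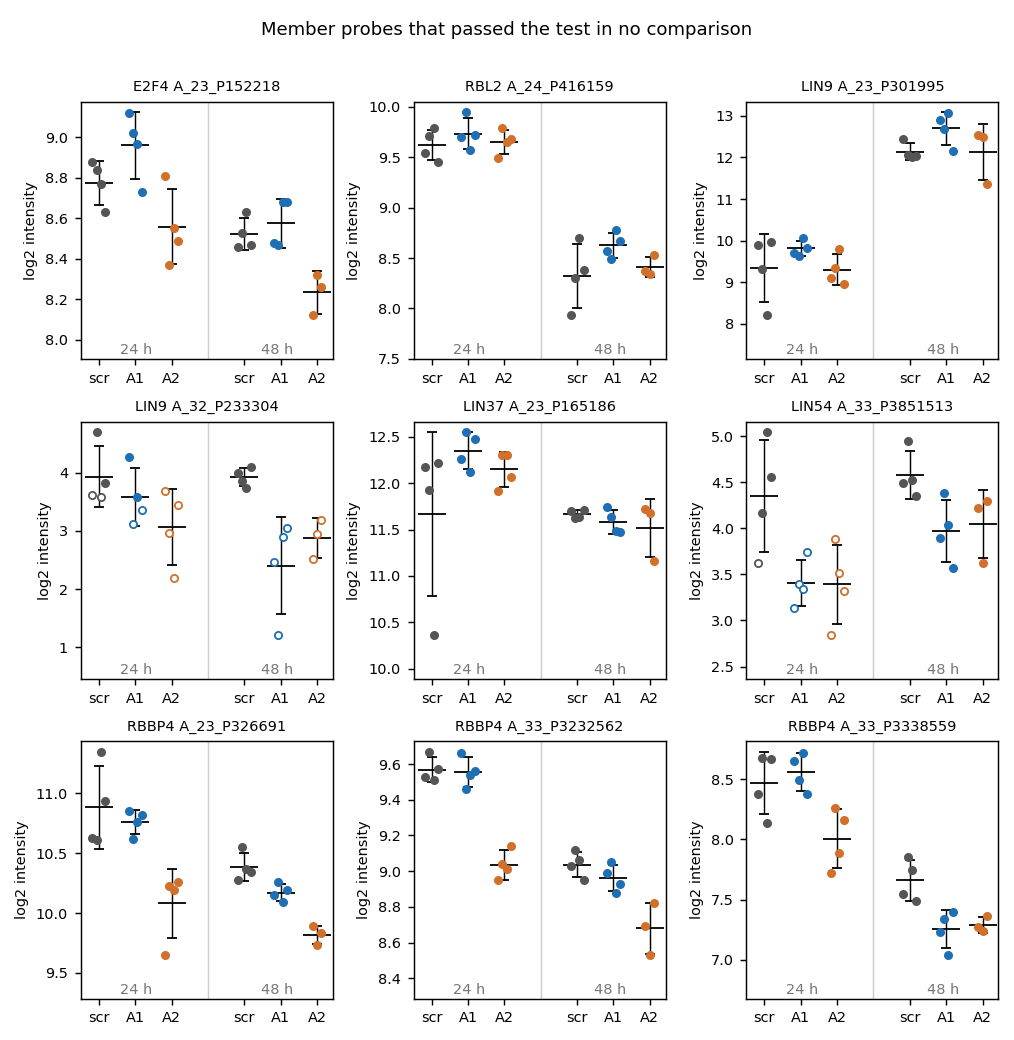
Log2 intensity (y axis) of the 9 subunit probes that passed the test in no comparison, for the groups scramble (scr), si-A1 and si-A2 at both time points, with 1 point per array (open where not well above background) and black marks for the mean ± SD. RBBP4 probe A_33_P3232562 has its si-A2 arrays between 8.95 and 9.14 at 24 h, below all others, and the lone low scramble array of LIN37 lies at 10.36.

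The share of probes whose arrays did not overlap with scramble gives a view without a fold threshold. At 24 h, 3 of 16 subunit probes were entirely lower and 1 entirely higher after si-A1, beside 5.40% and 3.92% of all tested probes, and 5 and 1 after si-A2, beside 4.42% and 3.22%. After si-A1 at 48 h, 8 were lower and 1 higher, beside 8.83% and 6.77%, and after si-A2 10 were lower and 0 higher, beside 7.26% and 4.03%. Probes of the same gene are not independent, and RBBP4 alone contributes 3 of the 10 probes below scramble after si-A2 at 48 h.

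The knockdowns were then compared with each other. Of the 16 subunit probes, 0 were called between si-A2 and si-A1 at 24 h, beside 0.366% of all tested probes (limma), although 8 had an unadjusted p below 0.05, beside 11.4% of all tested probes. At 48 h 1 was called, beside 1.45%, and this was TFDP1 probe A_32_P199301, with a level 1.02 ± 0.13 higher in si-A2 arrays than in si-A1 arrays (limma adjusted p = 0.00417, 1.19 and 0.91 within the slides). For the 3 RBBP4 probes A_23_P326691, A_33_P3232562 and A_33_P3338559, the si-A2 arrays were all below the si-A1 arrays at 24 h, with differences of -0.68 ± 0.17, -0.52 ± 0.11 and -0.56 ± 0.18, and the smallest adjusted p among them was 0.0527.

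Whether an effect differed between the time points was tested over 35826 probes present on both array versions, with all 23 arrays normalised together. Of the 16 subunit probes 0 were called for either siRNA, beside 0.159% and 0.0335% of all probes (limma), while 4 and 3 had an unadjusted p below 0.05, beside 13.3% and 7.56%. For RBL1 probe A_24_P276102 the fitted difference for si-A2 was 1.80 ± 0.37 (adjusted p = 0.0812), but its size is not measured, since the probe was well above background on 0 of 4 si-A2 arrays at 24 h. For E2F5 the 48 h effect minus the 24 h effect was -0.79 ± 0.20 for si-A2 (adjusted p = 0.215) and -0.56 ± 0.19 for si-A1 (adjusted p = 0.186). Array version and time point cannot be told apart in this comparison.

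The promoters of RBL1, LIN52 and TFDP1 are shown because these genes had called decreases and because, among the subunits searched, only theirs held an exact match to an E2F motif. RefSeq promoter windows of 300 bases on GRCh38.p14, from 250 before the start site onwards, were found for 9 of the 10 genes, 15 windows in all. They were searched on both strands for the E2F motifs TTTGGCGC, TTTCGCGC, TTTCCCGC and TTTGCCGC, the CHR motifs TTTGAA and TTCGAA, and CCAAT, with overlapping matches allowed. Capitals mark the matches, and each sequence runs 5′ to 3′ on the strand of the gene.
RBL1, chr20:37095948-37096247, minus strand: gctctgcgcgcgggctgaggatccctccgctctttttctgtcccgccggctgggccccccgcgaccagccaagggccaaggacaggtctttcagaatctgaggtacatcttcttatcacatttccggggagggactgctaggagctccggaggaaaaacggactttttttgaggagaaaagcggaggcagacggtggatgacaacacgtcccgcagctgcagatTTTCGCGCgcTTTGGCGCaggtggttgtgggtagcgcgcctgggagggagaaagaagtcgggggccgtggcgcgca
LIN52, chr14:74084706-74085005, plus strand: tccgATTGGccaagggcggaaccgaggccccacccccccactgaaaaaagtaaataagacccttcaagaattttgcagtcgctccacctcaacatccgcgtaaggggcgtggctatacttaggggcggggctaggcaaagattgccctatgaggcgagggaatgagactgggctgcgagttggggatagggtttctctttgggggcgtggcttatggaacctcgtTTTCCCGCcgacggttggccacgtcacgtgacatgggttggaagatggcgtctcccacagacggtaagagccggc
TFDP1, chr13:113584503-113584802, plus strand: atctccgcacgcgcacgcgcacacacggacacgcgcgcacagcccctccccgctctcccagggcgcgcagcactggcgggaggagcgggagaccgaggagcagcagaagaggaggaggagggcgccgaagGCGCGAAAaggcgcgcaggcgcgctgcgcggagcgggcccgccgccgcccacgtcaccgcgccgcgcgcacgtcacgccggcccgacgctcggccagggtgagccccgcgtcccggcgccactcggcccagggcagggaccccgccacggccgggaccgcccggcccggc

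The RBL1 window holds 2 E2F matches, TTTCGCGC and TTTGGCGC, which begin 26 and 16 bases before the start site and do not overlap. The LIN52 window holds TTTCCCGC 25 bases before the start site, and the reverse complement of CCAAT at its far end. In the TFDP1 window TTTCGCGC lies on the opposite strand, 120 bases before the start site. An E2F match was present in 3 of the 15 subunit windows and in 3.31% of the 35116 promoter windows of all genes, a CHR match in 5 and in 16.4%, and CCAAT in 5 and in 34.6%. The CHR matches were in windows of RBL2, LIN9, LIN37 and LIN54. Windows of the same gene can overlap, and a shared match was counted in each. Both LIN54 windows hold the same TTTGAA, and both RBBP4 windows share a CCAAT match. A match describes letters only, and binding was not measured.

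The genes around DREAM were followed in 4 lists, with the brightest probe of each gene and calls from the same fit over all probes. The lists were chosen with the response of cell cycle genes on these arrays known, so their direction is not independent evidence. A gene counted as measured if a probe of it passed the background threshold, which some did without being well above background on any array. Among the partners, which are relatives of the subunits and alternative partners of MuvB, 11 of 12 genes were measured. At 24 h 3 were called lower for si-A1 and 4 for si-A2, with 0 higher, and the list medians were -0.69 and -1.01. E2F1, an activating E2F, differed by -2.46 and -3.23. E2F2, its close relative, differed by -2.21 for si-A1 and was at least 5.51-fold lower for si-A2. FOXM1, which drives mitotic genes together with MuvB, differed by -1.01 for si-A1 and -1.11 for si-A2, and MYBL2, the other activating partner of MuvB, by -1.13 for si-A2.

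After si-A1 at 48 h, 7 partners were called lower and 1, the repressive E2F7, higher by 1.06, with a list median of -1.13. RB1 is counted among those called lower, but its probe was well above background on 1 scramble array and 0 si-A1 arrays. Its bound was only 1.01-fold. E2F2 was at least 6.20-fold lower, MYBL1 at least 3.53-fold lower, and E2F1 differed by -2.69. After si-A2 at 48 h MYBL2 alone was called (-0.83 ± 0.11, limma adjusted p = 0.00863), a call lost with the replicate number as a block, with a list median of -0.58.

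Among the upstream regulators of DREAM, 12 genes were measured at 24 h, and 3 were called lower for si-A1. These were CCND1, which encodes cyclin D1 (-1.84), the kinase gene CDK2 (-1.60) and CCNE2, which encodes an E-type cyclin (-1.56). For si-A2, CCNE2 (-1.82) and CCND1 (-1.22) fell, and CDKN1A, the kinase inhibitor induced by p53, rose by 1.79 ± 0.15 (limma adjusted p = 0.000103). For si-A1 the CDKN1A difference at 24 h was 0.68 ± 0.15 and was not called (limma adjusted p = 0.0426). The list medians were 0.00 and -0.10. Of 10 genes measured at 48 h, 3 were called lower and 1 higher for si-A1, among them CCNE2 (-2.74), CDK2 (-2.15) and CDKN1A (2.10), and 0 were called for si-A2 (limma). The CDKN1A difference for si-A2 was then 1.21 ± 0.20 and missed the threshold (limma adjusted p = 0.0179). The list medians were then -0.16 and -0.18.

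Nearly all target genes of the G1/S phase, which serve DNA replication, fell at 24 h. Of 12 such genes 12 were called lower for si-A1 and 11 for si-A2, with list medians of -1.67 and -1.98, and of 12 target genes of the G2/M phase, which serve mitosis, 8 and 7 were called lower, with medians of -1.34 and -1.36. In both comparisons the same 3 target genes had the largest differences among those called. RRM2, a subunit of ribonucleotide reductase, differed by -3.12 for si-A1 and -2.88 for si-A2, ORC1, part of the origin recognition complex, by -2.46 and -2.27, and CDK1, the mitotic kinase, by -2.41 and -2.27.

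After si-A1 at 48 h, all 12 G1/S genes and 10 of 11 measured G2/M genes were called lower, with medians of -2.18 and -2.79. The largest differences among the called genes were those of RRM2 (-3.76), of BIRC5, a chromosomal passenger protein (-3.72), and of CCNB2, a mitotic cyclin (-3.54). After si-A2 at 48 h, 2 G1/S and 3 G2/M genes were called lower, with list medians of -0.98 and -1.62, and 0 of these 5 calls were left with the replicate number as a block. The largest differences among the called genes were those of the topoisomerase gene TOP2A (-1.83), the mitotic kinase gene AURKA (-1.71) and the cyclin gene CCNA2 (-1.62).

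**Figure D4:**
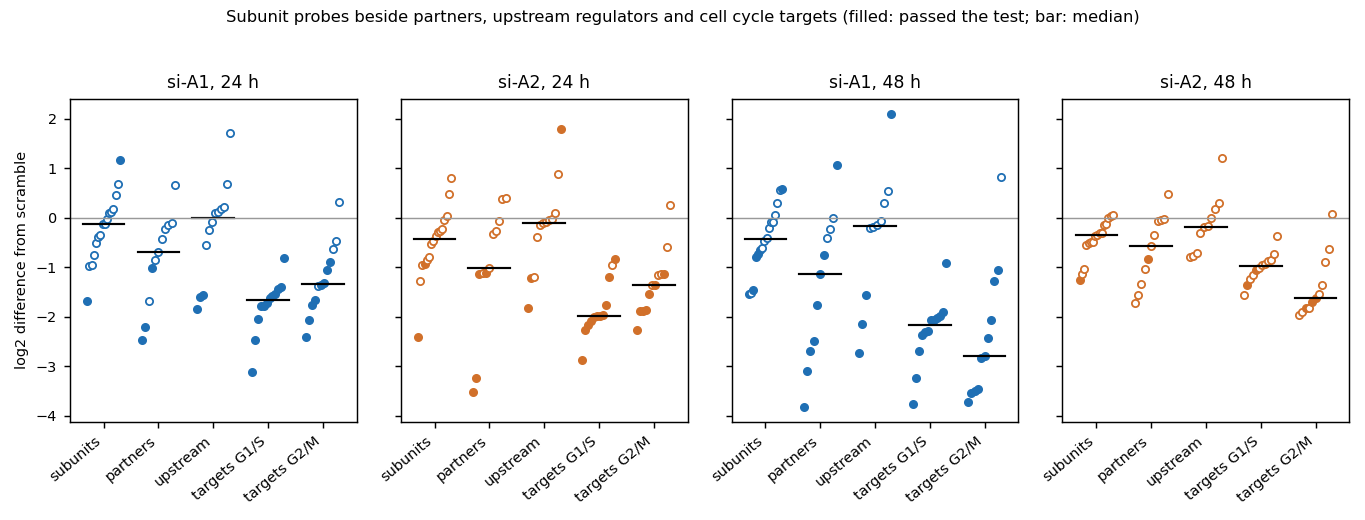
Log2 difference from scramble (y axis) for the 16 subunit probes and for the genes of the 4 lists (1 probe per gene), in the 4 comparisons, with filled points for those that passed the test and a black bar for the median. The medians of the target lists lie between -0.98 and -2.79, while those of the subunit probes lie between -0.12 and -0.44.

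The probes with a pattern most like that of a subunit were sought over the 12 arrays of 24 h, among 7276 genes whose interquartile range reached 0.5. Pearson r is given as a description, since all arrays share the same groups and slides. RBL1 probe A_24_P276102 was most like GTSE1, H2AC4 and CDC20 (r of 0.969, 0.964 and 0.960), a mitotic regulator, a replication-dependent histone and an activator of the anaphase-promoting complex. RBL1 probe A_23_P28733 was most like the histone genes H4C3 and H4C13 and the formin gene DIAPH3 (0.960, 0.958 and 0.958). E2F5 was most like ENC1, SLC41A3 and MCM3AP-AS1 (0.963, 0.961 and 0.960), and TFDP1 probe A_32_P199301 like RIMKLA, MAF1 and POM121 (0.956, 0.941 and 0.940).

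LIN52 was most like SNX6, RIN2 and the subunit gene RBBP4 through probe A_33_P3338559 (0.905, 0.903 and 0.899), which in turn was closest to PHF5A, LTF and NUDT4 (0.95, 0.921 and 0.918). RBBP4 probe A_23_P326691 was most like SLC38A2, BLOC1S6 and PITPNA (0.980, 0.967 and 0.967). LIN54 was most like EIF1AX, GPRIN1 and SUV39H2 (0.918, 0.908 and 0.899), and LIN9 probe A_23_P301995 like CNST and CMTM7 (0.974 and 0.973). That LIN9 probe was at 8.20 on scramble replicate 3, below all other arrays of 24 h, and r without that array was not computed. The 7 remaining subunit probes, those of E2F4, RBL2 and LIN37 among them, had an interquartile range below 0.5 over these arrays and were not matched.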

How the data were processed

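RNA of LNCaP cells was labelled with Cy3 and hybridised to Agilent single-colour arrays. The authors deposited Feature Extraction 11.5.1.1 output, whose processed signal is a background-subtracted linear intensity, together with log2 values per time point that had been quantile-normalised. The submitters' processing notes name R 3.4.3, limma 3.34.8 and the build hg38.

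Samples were grouped by their titles. Here the log2 processed intensity was quantile-normalised over the arrays of a time point, spots marked as non-uniform or population outliers were dropped, and repeated spots were averaged, giving 50599 probes at 24 h and 58201 at 48 h. Probes were named through RefSeq (29033 and 31104 named). Tested probes (44849 and 45200) lay, on 3 or more arrays, over a limit of 3 SDs past the average of 308 negative control spots. The limma 3.58.1 functions lmFit and eBayes were run in R 4.3.3, all siRNA groups in 1 fit with the slide as a term, and adjusted p-values are Benjamini-Hochberg values over all tested probes. The fit was tested on simulated data. The members and lists were chosen with earlier results of these data known. Named genes were all member probes, per comparison the called genes with the 3 largest differences among the partners, the upstream genes and all targets together, and the 3 genes with the highest correlation per member probe; FOXM1 for si-A2, E2F7 and KLK2 were named after their values were seen. Some genes that these rules would name are not reported here.

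Where no array of a group was well above background, a bound was taken against the lowest signal well above background on each array. Such a bound compares group means and makes no allowance for the spread of the arrays. It holds only on the background-subtracted scale. Precision is limited by how many arrays there were. Deviations of same-numbered replicates from their group means correlated at 0.177 to 0.353 in all 10 pairs at 48 h. This range includes the median of 0.189 for other numbers on the same slide, so pairing by number and a shared slide cannot be told apart. The calls at 48 h come from the fit with the slide, and a fit with the replicate number as a block is given beside it. At 24 h the range was -0.147 to 0.159. Alternatives were other scalings, background corrections, filters, probe rules and blocks, the authors' log2 values, the groups compared alone in the fit, each array left out, and the dim array kept. The normexp alternative used the median signal, since the mean signal was not among the columns used here. Sequences are from RefSeq (GRCh38.p14).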

Additional observations from a re-analysis of the deposited data

Results flagged for a closer look

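3 of 80 sets of 4 arrays held a value far from the other arrays of its group by Dixon's criterion, where chance alone gives about 1 in 20. LIN37 probe A_23_P165186 was at 10.36 on scramble replicate 3 at 24 h, against 11.93 to 12.22 on the other scramble arrays. RBBP4 probe A_23_P326691 was at 9.65 on si-A2 replicate 1 at 24 h, against 10.19 to 10.26. LIN9 probe A_23_P301995 was at 12.45 on scramble replicate 1 at 48 h, against at most 12.07 on the others. Their cause was not tested. The response to the siRNAs differed for TFDP1 probe A_32_P199301 at 48 h, where si-A2 arrays were 1.02 above si-A1 arrays (limma adjusted p = 0.00417, higher in 3 of 3 si-A2 arrays).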

How the results depend on the processing

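No difference that was called changed sign under any of the alternatives run. The counts of called subunit probes did change. After si-A1 at 24 h the 2 calls became 1 under scaling on the 75th percentile, normexp with an offset of 50, no background correction, no slide term, the replicate block and the interquartile range filter, and 0 with only the groups compared in the fit. After si-A2 at 24 h the 2 calls became 1 under the replicate block, the interquartile range filter and the brightest probe of each gene, and 0 with only the groups compared. Under normexp and under no background correction the count of 2 held, but with other probes. RBL1 probe A_24_P276102 was lost, and RBBP4 probe A_23_P326691 joined (-0.78 in both, limma adjusted p = 0.00606 and 0.00608). After si-A1 at 48 h the 6 calls became 2 under normexp and under no background correction, 3 under the replicate block and with the brightest probe of each gene, and 0 with the dim si-A2 array kept. After si-A2 at 48 h the 1 call became 0 under normexp, no background correction, the replicate block, only the groups compared, the interquartile range filter and the dim array kept, and 2 with the brightest probe of each gene, where RBBP4 probe A_23_P326691 joined (-0.56, adjusted p = 0.00961). Leaving out 1 array at a time gave 0 to 2 and 1 to 2 calls at 24 h and 2 to 6 and 0 to 1 calls at 48 h, after si-A1 and si-A2. The other settings, the fit without a filter on dim probes among them, stayed within 1.5 times the count, though not always with the same probes. So did the count between the knockdowns under the 75th percentile and the 0 changed effects with the dim array kept. TFDP1 probe A_32_P199301 was called after si-A1 at 48 h in 21 of 22 alternatives and RBL1 probe A_24_P276102 after si-A2 at 24 h in 19 of 22. The least stable calls were those of E2F5 (5 of 23) and LIN52 (9 of 23) after si-A1 at 48 h, of LIN52 after si-A2 at 48 h (7 of 23), and of RBL1 probe A_24_P276102 after si-A1 at 24 h (7 of 22).

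Over all tested probes the 24 h calls (494 for si-A1, 416 for si-A2) ranged from 175 to 665 and from 191 to 531 across the settings that kept every array, with the fewest when only the groups compared were fitted. At 48 h the 2761 calls after si-A1 fell to 27 with the dim array kept and rose to 3371 with probes well above background on at least 3 arrays, and the 201 after si-A2 ranged from 0 under the replicate block to 755 without background correction. The cause was not tested. At 24 h deviations of same-numbered replicates correlated at -0.147 to 0.159, which cannot show whether the numbers pair the cultures. Low signal limits LIN54, LIN52, LIN9 probe A_32_P233304 and RBL1 probe A_24_P276102, which were near background on many knockdown arrays.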
